A study of Mus musculus with 25 samples.

Results

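WT31 is a murine melanoma line whose mice of origin carried Tyr::Nras Q61K/°; INK4a-/-, so that the Tyr promoter drives a mutant Nras in cells of the melanocyte lineage. Its 5 libraries were taken by their cell line label from a series of 25 and were compared with 20 libraries of 4 other lines, 5 libraries each. The series compared these lines to find molecular features that go with their unequal ability to colonize the liver. B16F10 luc2 is a purchased luciferase line, RET comes from mice with a human RET transgene under the mouse metallothionein-I promoter, HCmel12 from a primary melanoma of HGF-CDK4(R24C) mice, and the mice of D4M carried, among other alleles, Tyr::CreER and BrafCA, with Cre under the Tyr promoter. All libraries are total RNA of untreated cells cultured to a confluency of 50%. WT31 and RET, and B16F10 luc2 by the methods of the study, were grown in RPMI with 10% serum, HCmel12 in supplemented RPMI with 10% serum and D4M in Advanced DMEM/F-12 with 5% serum, so that medium and line cannot be told apart for D4M and HCmel12. Each genotype is represented by 1 line. The labels call the 5 libraries of a line biological replicates without naming separate cultures, so that p-values measure the spread between libraries of these lines.

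Melanoma cells descend from melanocytes, which arise in the neural crest, carry the receptors Kit and Ednrb and make melanin through tyrosinase (Tyr) under the transcription factors Mitf and Sox10. Nras passes growth signals from receptor tyrosine kinases to the ERK kinases, and the Cdkn2a locus, which holds INK4a, encodes inhibitors of the cell cycle. Wnt ligands stabilize beta-catenin, which acts with Lef1 and Tcf7 on target genes such as Axin2, and many of these targets in turn restrain the pathway.

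Levels are given as CPM (counts per 1000000 counts of the library, with TMM scaling), and differences as the log2 difference of WT31 from another line, with the standard error of limma's fit and its Benjamini-Hochberg adjusted p. A gene is called higher or lower in WT31 when its adjusted p was under 0.05 with the same sign against each of the 4 other lines, and the comparison nearest to 0 is its weakest difference. Library totals lay between 24199083 and 25843286 counts, and a count of 3, the floor used here, corresponds to between 0.111 and 0.138 CPM and covers counting error only. Log2 CPM of WT31 libraries correlated with each other at 0.9869 to 0.9929 and with libraries of other lines at 0.7483 to 0.8668. A few libraries stood apart from their own line. WT31 replicate 5 had 110 of 9077 well measured genes at least 2-fold below the mean of the other 4 WT31 libraries, most visibly genes of mitosis, whereas this number was between 0 and 8 for the others. HCmel12 replicate 4 had 89 genes at least 2-fold above the other HCmel12 libraries, and D4M replicate 1 carried traces of melanocyte genes. Results that rest on one of these libraries are given with and without it.

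Of 15247 tested genes, 11105 (72.8%) differed between WT31 and B16F10 luc2, 11164 (73.2%) between WT31 and RET, 11605 (76.1%) between WT31 and D4M and 10732 (70.4%) between WT31 and HCmel12. WT31 was higher than each other line for 2104 genes (13.8%) and lower for 1687 genes (11.1%). A further 2257 genes differed from all 4 lines with mixed signs, and 445 differed from none. The difference was at least 2-fold in each comparison for 743 of the higher and 487 of the lower genes. In 1507 genes (9.88%) all 5 WT31 libraries lay above all 20 others, and in 1077 genes (7.06%) all 5 lay below. The balance of directions depended on the scaling, as 55.5% of the called genes were higher with TMM factors, 68.4% with library size only (2555 higher and 1183 lower) and 76.7% with log2(TPM + 1), where the number of tested genes (14547) and of libraries (24) changed as well. By the same rule 3055 genes were higher and 2398 lower in D4M than in each other line, 1457 and 1044 in HCmel12, 1343 and 1041 in B16F10 luc2, and 1078 and 772 in RET. WT31 thus held more such genes than 3 of the lines and fewer than D4M.

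The genes that led the higher set were abundant in WT31 and near the floor in all other lines. Ednrb, the endothelin receptor of melanoblasts (chr14:103814625-103844402, minus strand, GRCm38), was at 1028, 884, 983, 779 and 1201 CPM in the 5 WT31 libraries and at most 0.408 CPM in the 20 others. Its weakest log2 difference was 12.38 ± 0.47, against HCmel12, and the level was at least 7070-fold higher than in D4M, where every library had a count of 0. The ligand Edn3, chosen after its values were seen, was at 0 in all libraries but WT31 replicate 4, where it reached 0.0385 CPM. Bmp7, a ligand of the BMP family (chr2:172868012-172940321, minus strand), lay at 582, 668, 619, 599 and 565 CPM in WT31 and at most 0.308 CPM elsewhere, with a weakest difference of 12.34 ± 0.40. Npy, which encodes the secreted neuropeptide Y (chr6:49822710-49829507, plus strand), lay at 232, 224, 259, 197 and 370 CPM and at most 0.163 CPM elsewhere. It was at least 2130-fold higher than in RET, where every library had a count of 0. No library of another line came near the lowest WT31 library for these genes.

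Nkd1, an inhibitor of Wnt signaling that is itself a Wnt target (chr8:88521354-88594884, plus strand), was measured at 529, 589, 630, 663 and 740 CPM in WT31, and the highest other library, of HCmel12, had 0.71 CPM. Sp5, a transcription factor and Wnt target (chr2:70474923-70477729, plus strand), was at 59.9, 79.8, 77.3, 88.1 and 76.7 CPM in WT31. Its counts were 0 in all libraries of D4M and HCmel12, which makes WT31 at least 554-fold and 626-fold higher. The other leading genes were the chemokine Cxcl15 (35.5 to 84.5 CPM, at least 425-fold higher than B16F10 luc2), the carbonic anhydrase Car2 (48 to 121 CPM), the laminin chain Lama1 (24.7 to 32.7 CPM, at least 224-fold higher than RET), the intracellular FGF family member Fgf12 (27 to 38.5 CPM, at least 231-fold higher than D4M) and Vat1l (36.2 to 62.6 CPM, at least 410-fold higher than HCmel12). For these 5 genes too every WT31 library lay above every other library. Scaled by transcript length, Npy led these genes in WT31 with 1064 TPM, before Nkd1 (474 TPM), Ednrb (407 TPM), Bmp7 (268 TPM) and Sp5 (61.4 TPM). Fitted differences of genes near 0 counts depend on the small offset of the log scale and are no bounds.

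**Figure D1:**
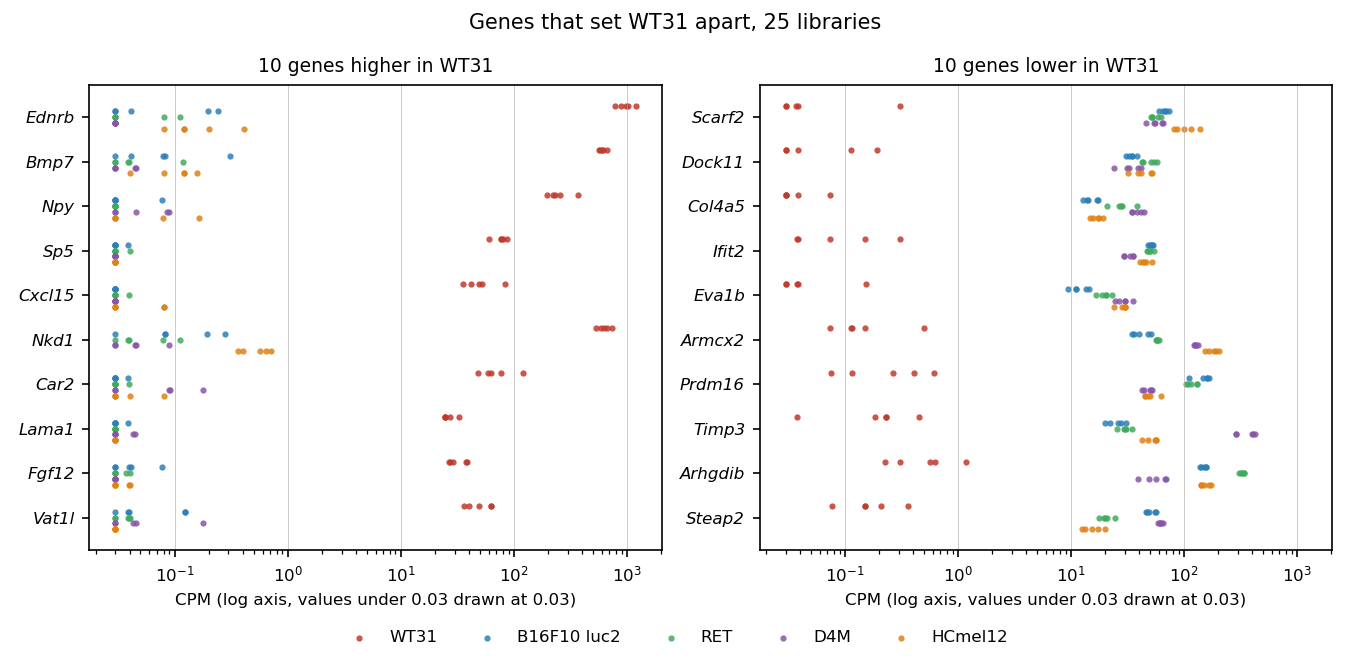
CPM on a log axis of the 10 genes with the largest weakest difference in each direction, with 1 point for each of 25 libraries coloured by line and values under 0.03 drawn at 0.03. The WT31 points stand alone on the right for the higher genes, such as Ednrb at 779 to 1201 CPM, and alone on the left for the lower genes, such as Scarf2 at 0 to 0.308 CPM.

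In the lower set, the leading genes were close to absent in WT31 and present in every other line. Scarf2, a scavenger receptor family member (chr16:17797282-17808293, plus strand), was at 0, 0, 0.0388, 0.308 and 0.0369 CPM in WT31 and between 46.2 and 140 CPM in the 20 others, with a weakest difference of -10.06 ± 0.70. Dock11, an activator of the small GTPase Cdc42, was at 0 to 0.192 CPM against 24.3 to 57.7 CPM, and the basement membrane collagen Col4a5 at 0 to 0.0739 CPM against 12.7 to 44.3 CPM. Prdm16, a transcriptional regulator, lay at 0.076 to 0.616 CPM against 42.8 to 165 CPM. Arhgdib lay at 0.228 to 1.19 CPM against 38.9 to 339 CPM. WT31 and the other lines did not overlap for any of these genes. The set also held Eva1b (0 to 0.154 CPM), Armcx2 (0.0739 to 0.5 CPM), the metalloreductase Steap2 (0.0776 to 0.362 CPM) and, described with their groups, Ifit2 and Timp3. Counts of the 10 genes summed to 37, 30, 26, 101 and 46 in the 5 WT31 libraries, and replicate 4 was the highest. Plagl1, an imprinted transcription factor gene, followed the same pattern, with 5.42 CPM in replicate 4 and 0.607 to 0.912 CPM in the other WT31 libraries against 995 to 1140 CPM in B16F10 luc2, 262 to 303 CPM in RET, 528 to 723 CPM in HCmel12 and 4.94 to 7.5 CPM in D4M. Its weakest difference was -2.31 ± 0.34, against D4M, with which replicate 4 overlapped.

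To describe which processes held these genes, lists of pathway members were compared by how many tested members were higher or lower than each other line, and by the list median, the median over tested members of the mean of the 4 log2 differences. Over all tested genes this median was -0.02. The lists were written with earlier results of these data known, and their counts are a description.

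**Figure D2:**
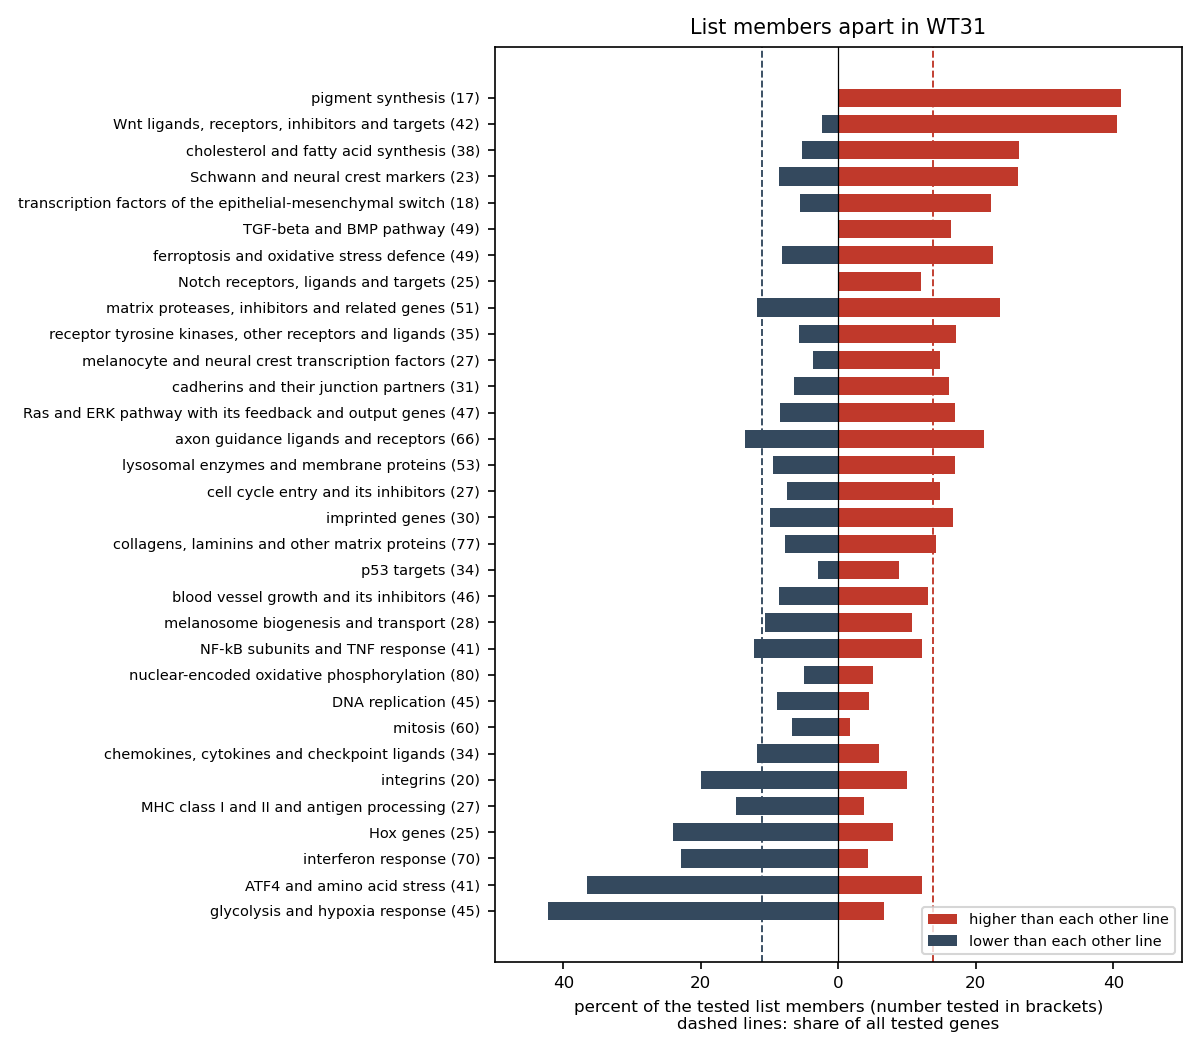
Percent of the tested members that were higher (right) or lower (left) in WT31 than in each other line, for lists with at least 15 tested members, with dashed lines at the shares of all tested genes, 13.8% and 11.1%. Among these lists the bars reach furthest to the right for pigment synthesis and the Wnt list and furthest to the left for glycolysis and ATF4.

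Among Wnt pathway genes, 17 of 42 tested members were higher in WT31 than in each other line and 1 was lower, with a list median of 1.23. The list median was similar for each line, with 1.5 against B16F10 luc2, 1.34 against D4M, 1.28 against HCmel12 and 1.05 against RET. In transcription, Lef1 was at 88.8, 112, 89.1, 96 and 86.2 CPM in WT31 and at most 5.62 CPM in any other library (weakest difference 4.55 ± 0.16), and Sp5 is given above. Of the ligands, Wnt4 was at 12.1, 9.91, 15.2, 10.7 and 23.8 CPM in WT31 and at most 0.561 CPM elsewhere. The secreted inhibitor Wif1 lay at 49.1, 37.8, 87.2, 46.4 and 116 CPM against at most 0.649 CPM. For Lef1, Wnt4 and Wif1 the lowest WT31 library was above the highest other library.

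Further Wnt genes, chosen after their values were seen, were the feedback genes Axin2, Notum and Znrf3 and the factor Tcf7. Axin2, the common readout of beta-catenin activity, lay at 125, 135, 131, 139 and 171 CPM in WT31, with 14.4 to 30.1 CPM in B16F10 luc2, 7.49 to 10.6 in RET, 0.802 to 2.51 in D4M and 5.27 to 11.3 in HCmel12. Tcf7 was at 179 to 220 CPM against 31 to 43.8 CPM in D4M, the next line (weakest difference 2.40 ± 0.08). Notum, an enzyme that inactivates Wnt ligands, was at 22.8 to 31.3 CPM in WT31, at 0.844 to 3.11 CPM in D4M and under 0.2 CPM in the other lines, and 33.0% of its 31-base sequences occur in transcripts of other genes. Znrf3, a ligase that removes Wnt receptors, differed least, at 44.3 to 53.4 CPM against at most 34.5 CPM. The gene of beta-catenin itself, Ctnnb1, did not stand apart, with 1109 to 1457 CPM in WT31 and a difference of -0.01 ± 0.05 from RET (adjusted p = 0.94). Lgr6, a receptor for R-spondins, was the list member lower in WT31 (0 to 0.418 CPM, weakest difference -2.86 ± 0.86 against B16F10 luc2, with the call lost at -0.47 with log2(TPM + 1)), and its relative Lgr5 lay between the lines at 0.613 to 2.17 CPM.

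The motif CTTTGAT, the core of Lef1 and Tcf7 sites, was sought on both strands of the 250 bases before the start of each gene in RefSeq (GRCm38.p6). It was found in 1005 of 27025 promoters (3.72%), in 3 of 42 promoters of the Wnt list and in 1 of the 11 promoters available for its higher members. That promoter belongs to Sp5, and the stretch around the match, chr2:70474799-70474845 on the plus strand, is shown because Sp5 had the largest weakest difference of the list, with the match in capitals.
Sp5: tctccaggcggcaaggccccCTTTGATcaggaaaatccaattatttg

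Of 17 tested genes of pigment synthesis, 7 were higher in WT31 than in each other line and 0 were lower, with a list median of 3.46. The median differed by line and was 11.26 against D4M, 1.24 against HCmel12, 0.71 against RET and 0.35 against B16F10 luc2. Without D4M replicate 1, which held traces of these genes, 8 members were higher. The count was also 8 with all libraries when scaled by library size only or fitted without the filter. In each of these fits Dct, whose weakest difference was against B16F10 luc2, gained the call. Tyr, which catalyses the first step of melanin synthesis, was at 3541 to 4490 CPM in WT31, with 993 to 1230 CPM in B16F10 luc2, the next line. Trpm1, a melanocyte channel, was at 1734, 1649, 2686, 1743 and 3246 CPM in WT31 and at most 247 CPM elsewhere (weakest difference 3.56 ± 0.24, against B16F10 luc2). Oca2, a melanosomal membrane protein, lay at 94.7 to 149 CPM against at most 14.2 CPM (3.60 ± 0.15, against HCmel12). Slc7a11, the cystine transporter, lay at 181 to 348 CPM against at most 70.3 CPM, the highest D4M library. In these 4 genes WT31 did not overlap with any other line. Mlana was higher by a smaller step, with 1479 to 2541 CPM against 941 to 1305 CPM in B16F10 luc2 (0.87 ± 0.15), and DESeq2's Wald test did not call it.

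Other enzymes of the same pathway followed another order. Tyrp1 was lower in WT31 (2554 to 4733 CPM) than in B16F10 luc2 (13498 to 14306), RET (7502 to 9283) and HCmel12 (7202 to 9717). Pmel, the fibril protein of melanosomes, was at 1178 to 2517 CPM in WT31, lower than B16F10 luc2 by a log2 difference of -1.78 ± 0.20 and higher than HCmel12 by 1.24 ± 0.20. Dct was at 5855 to 8014 CPM and higher than RET, D4M and HCmel12, while its difference from B16F10 luc2 was 0.35 ± 0.19 (adjusted p = 0.099) and passed the threshold without D4M replicate 1 or HCmel12 replicate 4 (0.36) and with library size only (0.43). Among genes of melanosome biogenesis and transport, 3 of 28 were higher and 3 lower (list median 0.13), and without WT31 replicate 5 only 1 was higher. Hps4, a subunit of a complex for melanosome assembly, was the one with the largest step, 58.1 to 79.8 CPM against at most 29.9 CPM.

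Promoters of pigment genes were searched for CATGTG, the core bound by Mitf, on both strands of the same 250 bases. It was found in 13.8% of all promoters, in 10 of 14 promoters of the pigment list and in 6 of 6 promoters of its higher members. Stretches around the match are shown for these 6 genes and, for contrast, for Tyrp1, which was not higher. Matches in capitals read CACATG where they lie on the opposite strand. Slc24a5, an ion exchanger, and Mc1r, the melanocortin receptor, were chosen after their values were seen, with mean levels of 1500 and 483 CPM in WT31 and 779 and 252 CPM in B16F10 luc2.
Tyr, chr7:87493513-87493553, minus strand: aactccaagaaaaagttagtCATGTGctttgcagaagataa
Oca2, chr7:56239553-56239598, plus strand: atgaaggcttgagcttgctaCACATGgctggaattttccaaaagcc
Trpm1, chr7:64153674-64153719, plus strand: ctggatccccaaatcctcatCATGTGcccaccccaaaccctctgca
Slc24a5, chr2:125068094-125068126, plus strand: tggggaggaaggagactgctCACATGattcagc
Mc1r, chr8:123407000-123407056, plus strand: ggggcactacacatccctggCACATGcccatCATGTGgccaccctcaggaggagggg
Slc7a11, chr3:50443662-50443707, minus strand: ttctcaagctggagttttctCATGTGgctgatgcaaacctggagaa
Tyrp1, chr4:80834147-80834192, plus strand: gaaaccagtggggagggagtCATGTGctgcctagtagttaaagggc
The same letters thus stood before genes that were higher in WT31 and before one that was lower than 3 of the lines. A match of letters is not evidence of binding.

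**Figure D3:**
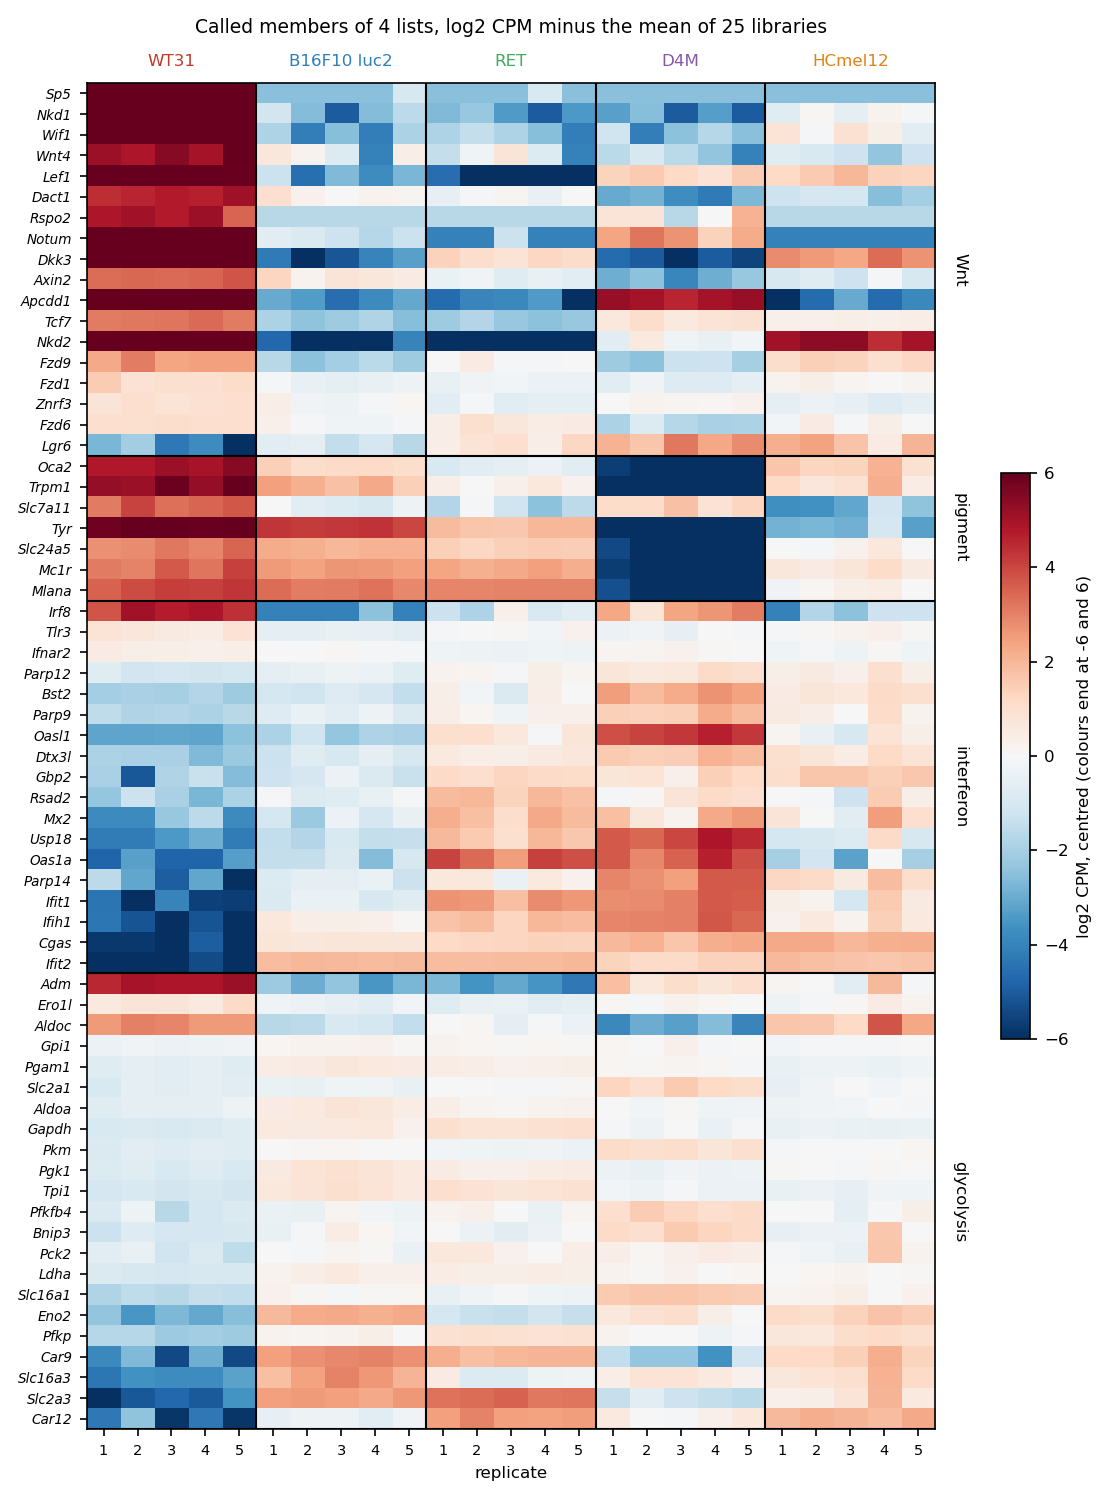
Members of the Wnt, pigment, interferon (1 member left out) and glycolysis lists that were higher or lower in WT31 than in each other line, as log2 CPM minus the mean of the 25 libraries, with red above and blue below the mean and colours ending at -6 and 6. The WT31 columns are red throughout the called Wnt members except Lgr6, and blue for the lower interferon genes and the 19 lower glycolysis genes.

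With TMM factors the master regulators of the lineage did not separate WT31. Mitf was at 325 to 524 CPM in WT31, with a difference of -0.07 ± 0.13 from RET (adjusted p = 0.62) and of -0.75 ± 0.13 from B16F10 luc2. Sox10 lay at 802 to 981 CPM and differed from HCmel12 by 0.12 ± 0.11 (adjusted p = 0.35), and Pax3 lay at 200 to 239 CPM and differed from HCmel12 by 0.01 ± 0.06 (adjusted p = 0.84). All 3 were far above D4M. Sox10 (0.29) and Pax3 (0.16) were called higher than each other line with log2(TPM + 1), and Pax3 also with log2(TPM + 0.1). Of 27 lineage factors, 4 were higher and 1 lower (list median 1.00). Tfeb, a Mitf relative that controls lysosomes, was at 36.1 to 69.2 CPM against at most 28.4 CPM. Foxd3, a factor of the early neural crest, was at 45.8, 30.8, 38.3, 41.4 and 37.5 CPM in WT31, at 18.2 to 24.7 CPM in D4M, at 10.8 to 18.3 CPM in HCmel12 and at a count of 0 in all libraries of B16F10 luc2 and RET, which makes WT31 at least 312-fold and 323-fold higher. Nr2f2 was lower (33.7 to 39.3 CPM, weakest difference -0.45 ± 0.11), and its call was lost with log2(TPM + 1) (-0.24).

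Of 18 transcription factors of the epithelial-mesenchymal switch, 4 were higher and 1 lower (list median 0.85, but -0.59 against D4M). Zeb2 lay at 267 to 364 CPM against at most 180 CPM, and Foxc1 at 61.7 to 90.6 CPM against at most 19.3 CPM. Runx3 was at 71.3 to 129 CPM in WT31, 42.1 to 53.2 CPM in HCmel12 and at most 0.158 CPM in B16F10 luc2 and RET, whereas its relative Runx1 was lower in WT31 (0.418 to 0.962 CPM) than in each other line (at least 8.43 CPM). Among 23 Schwann and neural crest markers, 6 were higher and 2 lower (list median 1.83). Ngfr, the neurotrophin receptor of neural crest cells, was at 120, 27.2, 49.5, 61.9 and 46 CPM, so that replicate 1 was the highest and the lowest overlapped with HCmel12 (10.7 to 30.8 CPM). Pmp22, a myelin protein, was lower at 0.554 to 2.69 CPM against at least 45.4 CPM.

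The altered genes of the line were then examined. Nras, which counts cannot divide into transgene and endogenous gene, was at 154, 146, 173, 169 and 192 CPM in WT31. It was higher than in each other line, but by little against HCmel12 (0.18 ± 0.06, adjusted p = 0.0088), where the ranges overlapped at 132 to 161 CPM, and the call was lost when only the 2 lines compared were fitted. In TPM, which divide counts by the effective length of the transcripts they were assigned to, the lines did not overlap. Nras was at 351, 341, 450, 421 and 589 TPM in the WT31 libraries and at 40.6 to 66.1 TPM in the others, and its weakest log2 difference was 2.82 with log2(TPM + 0.1) and 2.80 with log2(TPM + 1). The size of the Nras difference thus depended on the unit, and the cause was not tested. Cdkn2a was at 2.65 to 3.23 CPM in WT31, at a count of 0 in all libraries of B16F10 luc2 and RET, at 0 to 0.128 CPM in D4M and at 181 to 221 CPM in HCmel12. The sources do not state which exons the INK4a-/- allele lacks, so that these counts are no check of the genotype. Its neighbour Cdkn2b, which encodes a further inhibitor of Cdk4 and Cdk6, was higher in WT31 with 38, 56.1, 36.8, 45.7 and 32.8 CPM, against 9.07 to 16 CPM in HCmel12 (1.88 ± 0.13) and at least 349-fold above RET, where all counts were 0. Mtap, the next gene in that region, was lower than in B16F10 luc2, RET and D4M and did not differ from HCmel12 beyond the error (-0.08 ± 0.08, adjusted p = 0.41), although leaving out HCmel12 replicate 4 brought it past the threshold.

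In a list of receptor tyrosine kinases, some other receptors and their ligands, 6 of 35 members were higher and 2 lower (list median -0.37). The higher members were Kit, Ror1, Ror2 and Fgfr4, which are receptor tyrosine kinases, Tgfa, a ligand named after its values were seen, and Ednrb, a G-protein-coupled receptor described above. The median was -1.62 against D4M, but 0.99 against B16F10 luc2, 0.56 against RET and 0.58 against HCmel12. Kit, the receptor for stem cell factor, was at 515, 440, 539, 458 and 701 CPM in WT31, 90.1 to 138 CPM in HCmel12 and at most 8.81 CPM elsewhere, while the gene of its ligand, Kitl, was lower in WT31 (0.19 to 0.417 CPM) than in each other line (weakest difference -4.20 ± 0.26). Both Wnt5a receptors of the Ror family were higher. Ror2 lay at 91.4, 97.3, 95, 118 and 86.8 CPM against at most 0.49 CPM, at least 785-fold higher than B16F10 luc2 with counts of 0, and Ror1 lay at 16.6 to 21.8 CPM against at most 2.72 CPM. Ddr2, a collagen receptor, was lower at 1.88 to 3.31 CPM against at least 75.4 CPM. Met, the receptor for HGF, took a middle place with 190 to 416 CPM, between RET and D4M (81 to 133 CPM) and HCmel12 and B16F10 luc2 (943 to 1816 CPM).

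In the Ras and ERK list 8 of 47 members were higher and 4 lower, with a list median of 0.10 that was -0.28 against D4M. Etv5, a transcription factor that follows ERK activity, was at 321, 497, 353, 416 and 405 CPM in WT31 against 151 to 199 CPM in HCmel12 (1.16 ± 0.13) and 7.63 to 19.1 CPM in B16F10 luc2 and RET. Phlda1 was at 601 to 806 CPM against at most 225 CPM. These 2 genes share 30.3% and 30.8% of their 31-base sequences with other genes. The phosphatase Dusp2 was lower (0.0759 to 0.48 CPM against at least 1.15 CPM), as was Junb (5.46 to 9.83 CPM against at least 11.2 CPM). Map2k2 and Sos1 were also lower, by -0.20 ± 0.07 and -0.30 ± 0.07 at the least, and lost the call with library size only. Of 27 genes of cell cycle entry, 4 were higher and 2 lower, and 7 were higher without WT31 replicate 5. Cdk6 was at 66 to 104 CPM, with a weakest difference of 0.49 ± 0.09 against D4M. Of 34 p53 targets, 3 were higher and 1 lower (list median 0.22, but -0.56 against D4M and -0.14 against RET), the latter the tetraspanin Cd82 (0 to 0.228 CPM against at least 1.7 CPM).

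Of 70 tested interferon response genes, 16 were lower in WT31 than in each other line and 3 were higher, with a list median of -2.15. The level of the list differed widely between lines, and the median was -3.83 against D4M, -1.65 against RET, -1.22 against HCmel12 and -0.09 against B16F10 luc2. Sensors of foreign nucleic acid went in both directions. Cgas, the sensor of cytosolic DNA, was at 0.0759, 0.076, 0.0388, 0.155 and 0 CPM in WT31 and at 8.56 to 25.8 CPM in the others (weakest difference -6.97 ± 0.40). Ifih1, a sensor of double-stranded RNA, was at 0 to 0.152 CPM against at least 3.61 CPM. In both genes WT31 lay near the floor, whereas Tlr3, an endosomal sensor of double-stranded RNA, was higher (20.6 to 28 CPM against at most 18.6 CPM). Ifit2, an antiviral effector, was at 0.152, 0.038, 0.0388, 0.308 and 0.0739 CPM in WT31 and at 29.5 to 54 CPM in the others (-8.19 ± 0.34), and Ifit1 was at 0 to 0.155 CPM against at least 1.34 CPM. Ifit2 thus set WT31 apart from all lines to a similar extent, while Ifit1 differed among them, from 1.44 to 2.16 CPM in B16F10 luc2 to 19.7 to 36.3 CPM in D4M.

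Some genes of the response, chosen after their values were seen, did not show this pattern. Irf9, a transcription factor of the response, was higher in WT31 than in B16F10 luc2 (1.16 ± 0.38) and lower than in RET, D4M and HCmel12. Irf7 lay at 0.31 to 0.456 CPM and did not differ from B16F10 luc2 beyond the error (0.28 ± 0.75, adjusted p = 0.76). Tmem173, the adaptor that Cgas activates, lay at 34.6 to 57.3 CPM, within the range of the other lines. Besides Tlr3, the higher members were Irf8 (4.59 to 11.2 CPM against at most 2.85 CPM) and the receptor subunit Ifnar2 (weakest difference 0.25 ± 0.06).

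A form of the interferon-stimulated response element, GAAA and GAAACT separated by any 2 bases, was found in the same windows on either strand in 69 of 27025 promoters (0.255%), in 12 of 53 promoters of the interferon list, in 4 of 11 of its lower members and in 0 of 3 of its higher members. The 4 stretches are shown because they carry the element before genes that were lower in WT31, in capitals, reading AGTTTC and TTTC with 2 bases between where the match is on the opposite strand. Gbp2, a GTPase, and Bst2, a membrane tether of viruses, lay at 0.076 to 1.27 and 7.09 to 9.16 CPM in WT31.
Ifit1, chr19:34640763-34640833, plus strand: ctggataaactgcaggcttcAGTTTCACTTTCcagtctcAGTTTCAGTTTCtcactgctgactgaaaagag
Oas1a, chr5:120907526-120907565, minus strand: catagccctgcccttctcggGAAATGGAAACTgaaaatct
Gbp2, chr3:142620582-142620633, plus strand: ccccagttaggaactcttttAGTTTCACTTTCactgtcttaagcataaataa
Bst2, chr8:71537571-71537622, minus strand: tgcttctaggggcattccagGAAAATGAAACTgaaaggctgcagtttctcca
Oas1a, which makes the second messenger of RNase L, was at 0 to 0.038 CPM in WT31, and 68.8% of its 31-base sequences occur in other genes. Its call was lost without HCmel12 replicate 4 (-2.17) and without WT31 replicate 1, 3 or 4 (-2.43 to -2.44). It was also lost with log2(TPM + 1) (-0.20) and at an adjusted p under 0.01. Oas1a, Gbp2 and Bst2 were chosen after their values were seen, and the lines overlapped for Gbp2.

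Of 27 genes of antigen presentation, 4 were lower and 1 higher, with a list median of -0.64, which was -2.19 against D4M and -1.06 against HCmel12 but -0.17 against RET and near 0 against B16F10 luc2. The MHC class I gene H2-D1 was at 18.5 to 27.7 CPM in WT31 against 31.1 to 39 CPM in B16F10 luc2 (-0.63 ± 0.17) and 354 to 580 CPM in D4M, and the chaperone Canx was at 633 to 704 CPM against at least 793 CPM. Without the filter H2-D1 lost its call, and 2 members of the list were lower. Among 34 chemokines, cytokines and checkpoint ligands, 4 were lower and 2 higher (list median -1.10). The median was -2.35 against D4M, -0.34 against HCmel12, -0.16 against RET and -0.04 against B16F10 luc2. Cd274, which encodes PD-L1, was lower at 0.228 to 1.15 CPM against at least 1.83 CPM. Cd200, an inhibitory ligand of myeloid cells, was higher at 199, 207, 149, 152 and 130 CPM in WT31 against 23.6 to 37.2 CPM in HCmel12 and at most 3.42 CPM elsewhere. Mif was lower (248 to 300 CPM against at least 317 CPM), but its call was lost with library size only and 60.5% of its 31-base sequences occur in other genes. In the NF-kB list 5 of 41 were higher and 5 lower (list median -0.24, but 0.26 against B16F10 luc2, 0.04 against RET, and 0.04 and 0.07 over all lines with TPM), and without WT31 replicate 5 only 3 were higher. Both shares of this list were near those of all tested genes, 13.8% and 11.1%. Tnfaip2 was lower at 0.543 to 1.03 CPM against at least 11.9 CPM, and Rel was higher at 12.6 to 16.4 CPM against at most 8.06 CPM.

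In the main fit, genes of glycolysis and the hypoxia response formed the list with the most lower members, 19 of 45, against 3 higher. The list median was -0.77. It was -0.77 against B16F10 luc2, -0.73 against RET, -0.92 against D4M and -0.44 against HCmel12. In several alternatives the interferon list had as many lower members or more. With the replicate block it had 21 against 19, and with log2(TPM + 0.1) 18 against 14. Slc2a3, a glucose transporter, was at 0, 0.154, 0.201, 0.158 and 0.465 CPM in WT31, at 1.88 to 3.82 CPM in D4M (weakest difference -4.09 ± 0.71) and at 7.27 to 68.9 CPM in the other lines. Slc16a3, which exports lactate, was at 0.229 to 0.525 CPM against at least 2.84 CPM, and the carbonic anhydrase Car12 was at 0 to 0.195 CPM against at least 0.702 CPM. Abundant enzymes, chosen after their values were seen, moved by a smaller step. Ldha, which forms lactate, was at 626, 581, 560, 583 and 584 CPM in WT31 against 1099 to 1701 CPM (-1.02 ± 0.06, against HCmel12). Gapdh was at 2441 to 2773 CPM against at least 3366 CPM (-0.44 ± 0.07), and the transporter Slc2a1 at 41.3 to 53 CPM against at least 55.2 CPM, and Slc2a1 lost its call with log2(TPM + 1) (-0.16). Hk2 did not follow, as it was higher in WT31 than in D4M and lower than in the 3 others.

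Members in the other direction were Adm, the vasodilator adrenomedullin (26.2, 35.4, 32.8, 33.5 and 41.9 CPM in WT31 against at most 4.44 CPM), and Ero1l (287 to 431 CPM against at most 277 CPM), besides Aldoc. Without HCmel12 replicate 4, in which several of these genes were high, 6 members of the list were higher, and without RET replicate 1 there were 5. Aldoc, at 21.3 to 29 CPM in WT31, was at 8.15 to 48.7 CPM in HCmel12, and its call was lost in 13 alternatives, among them DESeq2's Wald test (0.28 in place of 0.62), edgeR's quasi-likelihood test (0.31), no filter, the fit of only the 2 lines compared, and the fits without HCmel12 replicate 1, 2 or 3 or WT31 replicate 2 or 3 (0.38 to 0.57). In the list of nuclear-encoded oxidative phosphorylation, 4 of 80 members were higher and 4 lower (list median -0.03, but 0.06 with library size only and 0.12 with log2(TPM + 0.1)). With log2(TPM + 1) 9 were higher and 0 lower, and with DESeq2 size factors 1 was higher and 4 lower. The weakest differences of the 8 called members were between -0.27 and 0.24 apart from Cox6a2 (-2.54), whose call was lost without many single libraries, and leaving out any of several single libraries, WT31 replicates 2, 3 and 5 among them, gave between 1 and 4 higher and between 2 and 4 lower. Of the 13 mitochondrially encoded genes 0 were called in either direction (list median 0.34).

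The ATF4 and amino acid stress list had 15 of 41 members lower and 5 higher (list median -0.59), and 11 were lower with log2(TPM + 1). The median was -0.67 against B16F10 luc2, -0.75 against RET and -0.53 against D4M, but -0.28 against HCmel12. In mean log2 CPM of the list WT31 (4.99 to 5.12) overlapped with HCmel12, which lay at 4.83 to 5.15 apart from replicate 4 at 6.17. Eif4ebp1, a repressor of translation, was at 24.3, 25.8, 27.1, 33.6 and 27.5 CPM in WT31 against 113 to 302 CPM (weakest difference -2.31 ± 0.16). Trib3, a pseudokinase induced by ATF4, was at 0.621 to 0.987 CPM against at least 2.03 CPM, and Aldh1l2, an enzyme of mitochondrial folate metabolism, at 2.78 to 6.6 CPM against at least 23.4 CPM. HCmel12 replicate 4 held the highest Trib3 level of its line, 65.4 CPM, and the number of lower members was between 14 and 16 when any single library was left out. The higher members were mostly transporters. Slc3a2, the heavy chain that pairs with Slc7a11 and Slc7a5, was at 1010, 1360, 1282, 1268 and 1479 CPM in WT31 against at most 461 CPM, and Slc7a5 was at 474 to 1095 CPM against at most 516 CPM, so that it overlapped with another line. Slc7a8, a further partner of Slc3a2 that is no member of the list and was chosen after its values were seen, was at 1886, 2526, 2353, 2215 and 2672 CPM in WT31 and at most 19.7 CPM in any other library (7.59 ± 0.14).

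In the list for oxidative stress and ferroptosis defence 11 of 49 were higher and 4 lower (list median 0.25). Gsta4, a glutathione transferase for lipid aldehydes, was at 133, 145, 168, 118 and 156 CPM in WT31, at 3.41 to 26.3 CPM in D4M and at most 1.07 CPM elsewhere. Gstm1 was at 336 to 431 CPM against at most 108 CPM, and the extracellular superoxide dismutase Sod3 at 146 to 191 CPM against at most 47.2 CPM. The metallothioneins Mt1 and Mt2 were lower, with 138 to 302 and 57.8 to 140 CPM, but Mt1 lost its call with library size only, Mt2 shares 58.1% of its 31-base sequences with other genes, and both overlapped with another line. Cholesterol and fatty acid synthesis had 10 of 38 members higher and 2 lower (list median 0.66), and between 8 (without WT31 replicate 5) and 12 higher when single libraries were left out, but 18 with log2(TPM + 1). The median was 0.85 against B16F10 luc2, 0.83 against RET and 0.59 against D4M, but 0.11 against HCmel12. The mean log2 CPM of the list was 6.67 in both WT31 and HCmel12, so that its level did not set WT31 apart from HCmel12. Tm7sf2, a sterol reductase, was at 62.1 to 76.2 CPM against at most 20.8 CPM, and Mvk, mevalonate kinase, at 56.4 to 71.5 CPM against at most 36.8 CPM, whereas Fasn, the fatty acid synthase, was lower at 233 to 290 CPM against at least 396 CPM. Of 53 lysosomal genes, 9 were higher and 5 lower (list median 0.36), and 14 were higher with library size only and 17 with log2(TPM + 1). Man2b1, an alpha-mannosidase, was at 243 to 283 CPM against at most 77.6 CPM.

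Of 77 matrix genes, 11 were higher and 6 lower, shares near those of all tested genes. The list median of -0.20 was set by D4M, with -2.84 against D4M but 0.83 against B16F10 luc2, 0.27 against RET and 0.70 against HCmel12. Besides Lama1, Col11a1 was higher with 49, 46.2, 43.6, 40.8 and 28.2 CPM in WT31 against at most 1.11 CPM, and Nid2 with 66.4 to 83.1 CPM against at most 26.9 CPM. Besides Col4a5, the thrombospondin Thbs3 was lower with 0.111 to 0.423 CPM against at least 3.58 CPM. In the list of matrix proteases, their inhibitors and related genes, 12 of 51 members were higher and 6 lower (list median 0.65, but -0.46 against D4M). Mmp15, a membrane-bound metalloprotease, was at 241, 227, 223, 222 and 195 CPM in WT31 against at most 21 CPM (weakest difference 3.81 ± 0.10), and Mmp2, a gelatinase, at 309, 220, 223, 236 and 213 CPM against at most 63.6 CPM (2.19 ± 0.10). Timp3, an inhibitor of metalloproteases, was lower with 0.455, 0.038, 0.233, 0.231 and 0.185 CPM against 20 to 425 CPM, and 21.9% of its 31-base sequences occur in other genes. Adamts14 (0 to 0.269 CPM against at least 7.46 CPM), Adam19 (0 to 0.22 CPM against at least 7.35 CPM) and the urokinase receptor Plaur (0.591 to 2.08 CPM against at least 8.64 CPM) were lower as well. Mmp2 and Mmp15 on one side and Timp3 and Plaur on the other did not overlap between WT31 and the other lines.

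Of 20 integrins, 2 were higher and 4 lower (list median -0.18, but 0.37 against RET, and 0.20 over all lines with log2(TPM + 0.1)). Itga4, which binds VCAM1 and fibronectin, was at 725, 556, 554, 554 and 422 CPM in WT31 against at most 253 CPM, and Itga8 at 74.5 to 107 CPM against at most 18.6 CPM. Itgb5 was lower at 4.02, 1.48, 1.97, 1.85 and 1.17 CPM against at least 25.9 CPM, and Itgb3 at 4.5 to 7.43 CPM against at least 11.7 CPM. Both encode partners of the alpha v chain. Itga2, a collagen receptor chain, was at 5.5 to 11 CPM, higher than B16F10 luc2, RET and HCmel12 and lower than D4M (-2.93 ± 0.17). Msx1, a homeobox gene, was at 0 to 0.111 CPM in WT31 and at 16.4 to 29.8 CPM in D4M. In a list of cadherins and their junction partners 5 of 31 members were higher and 2 lower (list median 0.25, but -1.31 against D4M and -0.26 against HCmel12). Cdh3, which encodes P-cadherin, was at 14.6, 13.3, 16.6, 13.5 and 27 CPM and Cdh11 at 6.91, 10.1, 13.7, 14.7 and 16.5 CPM, with at most 0.138 CPM of either in any other library. The other higher members were Cdh24 and the catenin family genes Jup and Ctnnd1 (named after its values were seen), and Pkp2, a plakophilin gene, was lower. Pcdh9, a protocadherin gene, was lower at 0 to 0.0769 CPM against at least 1.9 CPM.

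For vessel growth, 6 of 46 list members were higher and 4 lower (list median -0.62). These shares were near those of all tested genes, and the median was -2.85 against D4M and -0.30 against HCmel12, but 0.25 against B16F10 luc2 and 0.59 against RET. Serpinf1, which encodes the inhibitor PEDF, was at 440, 644, 531, 555 and 513 CPM against at most 168 CPM, and Vash1, vasohibin, was at 21.8 to 27 CPM against at most 6.42 CPM. Angpt2, a ligand of Tie2, was lower at 0.517 to 0.815 CPM against at least 11.6 CPM, and so was Nrp2, a coreceptor for VEGF and semaphorins, at 15.5, 5.12, 4.39, 7.39 and 4.03 CPM against at least 42.8 CPM. The remaining higher members were Adm, given above, Angptl1, Vegfc and Epas1, and the remaining lower members were Timp3, given above, and Angptl6. Angptl1, Vegfc, Epas1 and Angptl6 were named after their values were seen and are not among the named genes counted below. Vegfa was at 18.7 to 26.3 CPM, with a difference of -0.04 ± 0.19 from RET (adjusted p = 0.87) and of -1.59 ± 0.17 from D4M. Of 66 axon guidance genes, 14 were higher and 9 lower (list median -0.18, but 0.39 against RET and 0.03 against B16F10 luc2). The Eph receptor Epha5 was higher at 20.8 to 30.6 CPM against at most 1.81 CPM, and its relative Epha7 was lower at 0 to 0.115 CPM against at least 3.03 CPM. Efna5, an ephrin ligand, was at 146 to 166 CPM against at most 32.8 CPM.

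In the TGF-beta and BMP list, 8 of 49 members were higher and 0 lower (list median 0.73). The share higher was near that of all tested genes, 13.8%, while 11.1% of all tested genes were lower. The median was 0.81 against B16F10 luc2, 0.81 against RET and 0.61 against HCmel12, but 0.05 against D4M. Besides Bmp7, secreted and membrane-bound antagonists were higher, namely Fst, follistatin (26.6, 12.3, 26, 17.5 and 25.3 CPM against at most 3.96 CPM), and Bambi (39.2 to 49.8 CPM against at most 18.6 CPM). Id4, a target of BMP signals, was at 21.7 to 42.4 CPM against at most 14.9 CPM. In the Notch list 3 of 25 were higher and 0 lower (list median 0.06, but -0.47 against D4M), with Maml2 at 33.5 to 45.9 CPM against at most 17.8 CPM.

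Genes of position and of chromosomes were examined last. Of 25 tested Hox genes, 6 were lower and 2 higher (list median -2.07), but 2 were lower with log2(TPM + 1) and 1 when only the 2 lines compared were fitted. The median was -3.24 against B16F10 luc2 and -1.77 against RET, but -0.39 against D4M and -0.08 against HCmel12. Hoxd4 was at a count of 0 in 4 WT31 libraries and at 0.038 CPM in replicate 1, against at least 1.25 CPM elsewhere, and 3 of 5 tested Hoxd genes were lower. Hoxb9 was higher with 217, 198, 194, 189 and 141 CPM in WT31, against 50.6 to 90.2 CPM in B16F10 luc2 and at most 13.9 CPM in the other lines, although 3 of the 8 tested Hoxb genes were lower. Hoxd4 shares 49.1% of its 31-base sequences with other genes. In the protocadherin beta cluster, 7 of 20 tested genes were higher and 0 lower, with a median of 2.44, at low levels such as 0.494 to 0.873 CPM for Pcdhb10, which was chosen after its values were seen. Of 30 imprinted genes, 5 were higher and 3 lower (list median 0.07). Mest was at 306 to 485 CPM against at most 112 CPM.

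Y-linked genes were found in WT31 and D4M. In a list of 4 Y-linked genes, Xist and Tsix, of which 5 were tested, the 4 Y-linked genes were higher in WT31 than in each other line, by little against D4M, such as Kdm5d (28.5 to 30.9 CPM against 19.5 to 23.1 CPM in D4M) and Ddx3y (0.21 ± 0.06). Xist was at 174 to 252 CPM in HCmel12 and at most 0.124 CPM in the other lines. Uba1y, a Y-linked gene chosen after its values were seen, was at 71.2, 78.2, 77.1, 76.9 and 80 CPM in WT31 and at 0.305 to 0.89 CPM in D4M, and 61.6% of its 31-base sequences occur in other genes. Genes higher than each other line made up 21.5% of the tested genes of chromosome 18, 20.5% of chromosome 2, 19.5% of chromosome 13 and 18.3% of chromosome 14, but 7.09% of chromosome 6. Genes lower than each other line made up between 6.02% (chromosome 14) and 15.7% (chromosome 11) of an autosome. On chromosome 6 the median difference was -0.64 against B16F10 luc2, -0.85 against RET, 0.18 against D4M and -0.03 against HCmel12.

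**Figure D4:**
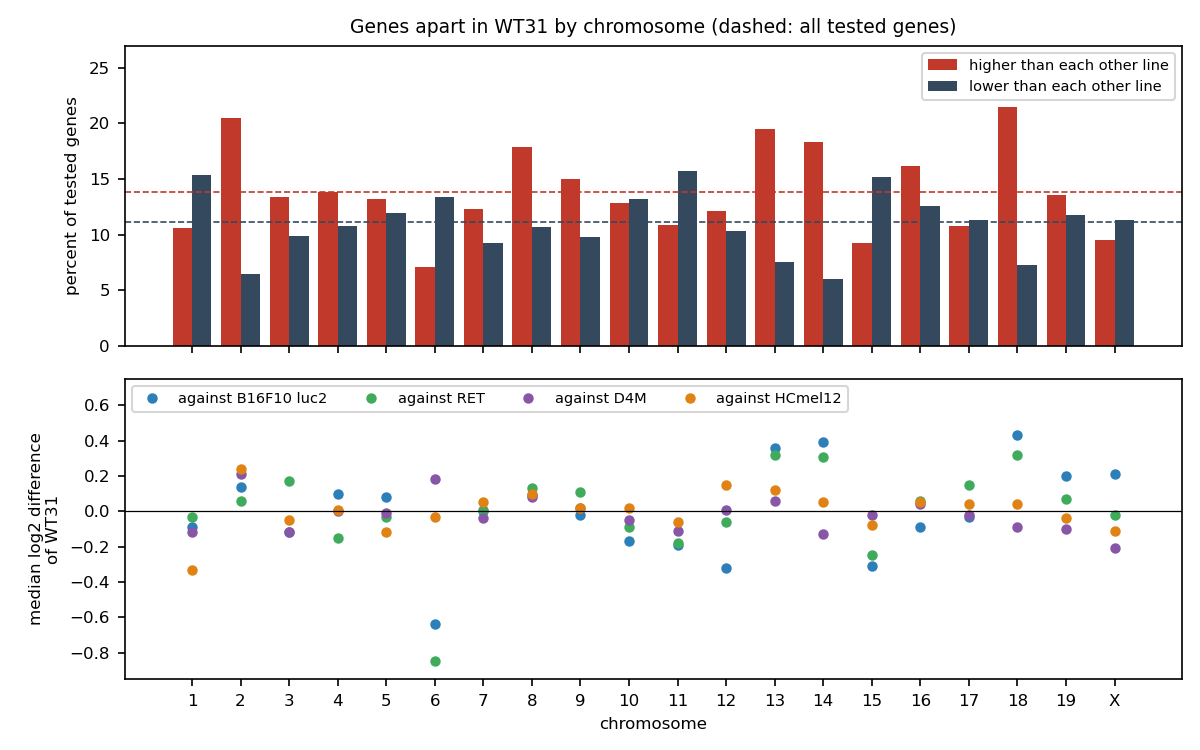
Upper panel, percent of the tested genes of each chromosome that were higher (red) or lower (dark) in WT31 than in each other line, with dashed lines at 13.8% and 11.1%. Lower panel, median log2 difference of WT31 from each line, where chromosome 6 lies at -0.64 and -0.85 against B16F10 luc2 and RET and near or above 0 against D4M and HCmel12.

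WT31 replicate 5 differed from the other WT31 libraries in genes of the cell cycle and in some other lists. The mean log2 CPM of 60 mitosis genes was 5.67 in replicate 5, against 6.95, 6.68, 6.57 and 6.83 in replicates 1 to 4 and 6.59 to 7.02 in the 20 libraries of other lines. It was the lowest WT31 library for 59 of the 60 genes and the lowest of all 25 libraries for 55 of them, or 53 with library size only. Cenpa, a centromere histone, was at 32.9 CPM in replicate 5 and at 76.8 to 115 CPM in the others, Ccnb2, a mitotic cyclin, at 33.7 against 72.8 to 122 CPM, and Cdc20, an activator of mitotic exit, at 48.7 against 106 to 157 CPM. Mki67, a marker of cycling cells, was at 422, 353, 305, 340 and 155 CPM. The 45 genes of DNA replication were lower by a smaller step, with a mean of 6.04 against 6.38 to 6.47 in the other WT31 libraries, and 41 of them were lowest in replicate 5. The 13 mitochondrially encoded genes had a mean of 10.86 in replicate 5 against 11.2 to 11.5 in the other WT31 libraries, and 12 were lowest there. In the other lines this mean was 10.3 to 11.9. Replicate 5 was the highest WT31 library for pigment synthesis (8.66 against 8.08 to 8.43) and lysosomal genes (6.69 against 6.32 to 6.52). The largest drop was that of Cp, outside the mitosis list (3.32 against 11.3 to 28 CPM). Cenpa, Ccnb2, Cdc20 and Cp were chosen after their values were seen.

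Other genes were highest in replicate 5, and 18 lay at least 2-fold above the mean of the other 4 libraries. Among these, chosen after their values were seen, were the ion exchanger Slc24a4 (35.4 against 7.06 to 20.8 CPM), Dner (50.4 against 15.9 to 26.3 CPM) and the Wnt inhibitor Wif1 (116 against 37.8 to 87.2 CPM). With all 5 libraries, 1 mitosis gene was higher and 4 lower in WT31 than in each other line (list median -0.21), and without replicate 5 there were 2 lower. Without replicate 1, the library with the highest mitosis mean, 8 were lower. Of the DNA replication genes 2 were higher and 4 lower (list median -0.18), and 2 were lower without replicate 5. Over all genes, 2068 were higher and 1594 lower without replicate 5, compared with 2104 and 1687 with it. Ednrb, Bmp7, Npy, Sp5 and Nkd1 were higher and Scarf2, Dock11 and Ifit2 lower with or without this library.

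**Figure D5:**
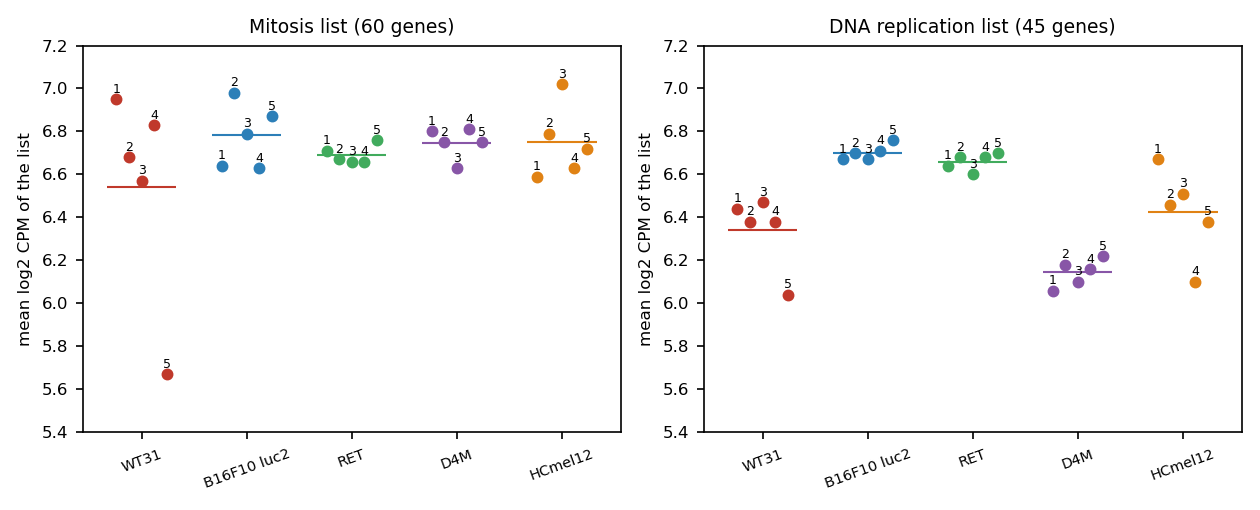
Mean log2 CPM of 60 mitosis genes (left) and 45 DNA replication genes (right) in each library, numbered by replicate, with a line at the mean of each cell line and an axis that starts at 5.4. WT31 replicate 5 lies at 5.67 and 6.04, below the other WT31 libraries in both panels and below all 20 libraries of other lines in the left panel.

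Markers of other cell types were low in WT31. Summed levels were 3.43 to 5.23 CPM for 10 fibroblast markers, 5.50 to 7.52 CPM for 10 endothelial markers, 4.39 to 12.5 CPM for 10 leukocyte markers and 2.05 to 2.89 CPM for 10 keratinocyte markers. Krt5, Krt14, Cd3e and Cd3g had no count in any WT31 library. In the other lines the fibroblast sum was 27 to 35.9 CPM in B16F10 luc2, 31.8 to 102 CPM in RET, 714 to 1395 CPM in D4M and 1.43 to 1.89 CPM in HCmel12, and its part in the matrix results was not tested. The hepatocyte sum of 280 to 390 CPM in WT31, compared with 360 to 478 CPM in HCmel12 and 40.9 to 81 CPM in the others, was nearly all from Trf, the gene of transferrin. Lyz2, a lysozyme gene of macrophages, was higher in WT31 (3.23 to 11.8 CPM against at most 2.19 CPM), whereas the macrophage marker Cd68 was lower (0.466 to 0.988 CPM against at least 1.93 CPM).

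At the threshold, Ints11 was the last gene called higher, with a largest adjusted p of 0.04979 and a difference of 0.13 from HCmel12, and Dnmt3a was the first outside, with 0.05001 and 0.22. On the lower side Fam89a was inside (0.04992, -0.63 against D4M) and Cmtr2 outside (0.05066, -0.22 against B16F10 luc2). The calls of these genes changed when single libraries were left out.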

How the data were processed

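RNA of 5 murine melanoma lines was sequenced in 25 libraries. Per the submitters' notes and the methods of the study, the authors trimmed reads with Trim Galore (0.6.4) and assigned them with kallisto to GRCm38.p6, and they deposited estimated counts per gene without normalization. The labels give kallisto 0.4.6 and a BGISeq-500 preparation, whereas the methods of the study name another kallisto version and an Illumina HiSeq instrument, a difference not settled here. The annotation release is not given in the sources used here. The authors also deposited TPM values, which account for transcript length and sum to 1000000, and of which 24 libraries were used, without D4M replicate 1. Kallisto divides reads that match several transcripts, so that genes with near-identical copies are uncertain. The share of 31-base sequences that a gene has in common with other genes is given as a measure of this.

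Genes were filtered with filterByExpr by line (edgeR 4.0.16), which kept 15247 of 55385, scaled with TMM factors and fitted with voom and limma (3.58.1, R 4.3.3) with 1 mean per line and all 25 libraries. The Benjamini-Hochberg adjustment was made over all tested genes, separately for each line compared. Named were the 10 genes with the largest weakest difference in each direction (named models with at least 10 CPM), at most 4 called members of each list and direction, genes of the line's biology and the genes at the threshold. Members, lists and this rule were chosen with earlier results of these data known. Some members permitted by the rule are not named, chosen after their values were seen.

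Alternatives were DESeq2 (1.42.0) size factors and Wald test, edgeR's quasi-likelihood test, library size only, no filter or at least 10 counts in every library, log2(TPM + 1) and log2(TPM + 0.1), only the 2 lines compared, the replicate number as a block, an adjusted p under 0.01, a log2 difference of at least 1, and leaving out each library. The procedure was tested on simulated data. Promoters and their sequences are from RefSeq (GRCm38.p6), and gene positions from GENCODE. Some results, 1 allele of D4M among them, are not reported here.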

Additional observations from a re-analysis of the deposited data

Results flagged for a closer look

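Of 205 values checked in the 5 WT31 libraries, 19 (14 genes and 5 lists) had a single library far from the other 4, and chance flags about 1 in 20. Replicate 5 was apart in 4 of them. It was the lowest library for cell cycle entry (mean log2 CPM 5.85 against 6.05 to 6.11) and for DNA replication (6.04 against 6.38 to 6.47), and the highest for Cdh3 (27 CPM against 13.3 to 16.6) and Canx (704 CPM against 633 to 649).

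Replicate 4 was the highest library for 5 genes that were near 0 in the other WT31 libraries and higher in the other lines. These were Scarf2 (0.308 CPM against at most 0.0388), Eva1b (0.154 against at most 0.0388), Armcx2 (0.5 against at most 0.152), Adamts14 (0.269 against at most 0.0388) and Plagl1 (5.42 against at most 0.912).

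Replicate 1 was the highest for the integrin list (mean log2 CPM 3.04 against 2.44 to 2.55), for Itgb5 (4.02 CPM against 1.17 to 1.97) and for Mmp2 (309 CPM against 213 to 236). Replicate 2 was the highest for Foxc1 (90.6 CPM against 61.7 to 69.3), Cdkn2a (3.23 CPM against 2.65 to 2.81), Cd68 (0.988 CPM against 0.466 to 0.577), Irf7 (0.456 CPM against 0.31 to 0.346) and Car12 (0.195 CPM against at most 0.0385), and the lowest for the fibroblast markers (mean log2 CPM -1.71 against -1.11 to -0.95). Replicate 3 was the highest for chemokines, cytokines and checkpoint ligands (mean log2 CPM 0.95 against 0.84 to 0.85).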

How the results depend on the processing

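Under 37 alternatives none of the 145 named and called genes was called in the opposite direction, while differences near 0 of genes without a call changed sign, such as Ctnnb1 (-0.01, and 0.15 with log2(TPM + 1)) and Mtap (-0.08 and 0.11), as did the medians of 3 lists given above. The count of genes lower than each other line was 887 with log2(TPM + 0.1) and 791 with log2(TPM + 1), compared with 1687, in a fit of 24 libraries. With a log2 difference of at least 1, a narrower criterion, there were 743 genes higher and 487 lower than each other line, and 4794, 4754, 5593 and 4576 genes differed from B16F10 luc2, RET, D4M and HCmel12. Leaving out single libraries gave 2047 to 2206 genes higher and 1590 to 1746 lower than each other line, and 10903 to 11380 different from B16F10 luc2, 10938 to 11446 from RET, 11474 to 11922 from D4M and 10515 to 10869 from HCmel12. With the replicate block these counts were 2060, 1722, 11132, 11173, 11616 and 10761. Deviations of libraries with the same number from their line means correlated at -0.131 to 0.14 with a median of -0.0063. No broad deviation shared by libraries of the same number was thus seen, but a correlation over all genes cannot exclude one that affects few genes. The median difference of all genes was between -0.01 and 0.01 against each line with TMM factors, but 0.22 against D4M with library size only, and 0.24 against D4M, 0.17 against HCmel12 and 0.11 against B16F10 luc2 with log2(TPM + 0.1). With log2(TPM + 1) fewer list members were lower for DNA replication (0 in place of 4), mitosis (1), redox (1), melanosomes (1), the ERK list (2), integrins (2), antigen presentation (2) and chemokines (2), compared with 3 or 4 each with TMM factors, and 9 oxidative phosphorylation genes in place of 4 were higher and 0 in place of 4 lower, whereas DESeq2 size factors gave 1 higher. With log2(TPM + 0.1) 9 guidance genes in place of 14 were higher, and without the filter 9 members of the cadherin list in place of 5. With at least 10 counts in every library, a filter that drops genes near 0 in any line, 6 Wnt genes in place of 17, 2 pigment genes in place of 7 and 0 members of the receptor tyrosine kinase list in place of 6 were higher, and 6 interferon genes in place of 16 were lower. Of 145 named and called genes, 107 kept the call in every alternative that tested them and 38 lost it in at least 1. Under the replicate block Aldoc lost it (0.52). Depth limits statements on genes near the floor of 3 counts.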
